A study of Mus musculus with 8 samples.

Results

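The 9 genes described here are grouped under the metabolism of vitamin A: the plasma carrier Rbp4, the storage enzyme Lrat, the retinol and retinal oxidoreductases Rdh16 and Dhrs3, the aldehyde dehydrogenases Aldh1a1 and Aldh1a7, the retinoic acid hydroxylases Cyp26a1 and Cyp26b1, and the retinoic acid receptor Rarb. They were chosen by name, as genes of retinoid metabolism, from the 22911 gene symbols on the array. Their transcripts were measured in whole liver of mice aged 10 to 11 weeks on 1-colour Agilent arrays, in 4 groups of n = 2 arrays: males labelled knockout for Bcl6, wild-type males, females labelled knockout and wild-type females. Bcl6 encodes a zinc-finger repressor of transcription, and the title of the study names its effect on the sex difference of the liver as the question. Per the labels the deletion was specific to the liver; the allele, the Cre driver and the strain are not given in the sources used here. "Knockout" below stands for that label.

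Retinol leaves the liver bound to the carrier protein that Rbp4 encodes, and is stored there as retinyl esters, mainly in stellate cells, after esterification by Lrat. Retinol is oxidised reversibly to retinal, and retinal is oxidised irreversibly to retinoic acid, which binds nuclear receptors. Enzymes of the Cyp26 family hydroxylate retinoic acid and so end its action, and Cyp26a1 and Rarb are themselves textbook targets that retinoic acid induces.

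The 75th percentile of the processed signal lay between 182 and 221 on the 8 arrays, and between 33677 and 36459 of 59305 spots were well above background. The number of arrays limits the precision. All arrays were on 1 slide, with females in row 1 and males in row 2, so slide row and sex cannot be told apart. The single Bcl6 probe read 4.0 and 3.51 in knockout males, against 3.46 and 2.40 in wild-type males, and 1.13 and 3.93 in knockout females, against 2.46 and 0.37 in wild-type females, as log2 relative to the 75th percentile of the array. Where that probe lies relative to the deleted part is not given, so it does not check the labels. All 8 hepatocyte markers were well above background on all 8 arrays, as were 13 of 15 stellate cell markers, with Des and Gfap the exceptions. Nothing in the labels states that the arrays came from separate animals, so the p-values reflect the spread of these arrays alone, which may be technical.

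Levels below are log2 of the processed signal minus that of the 75th percentile of the array, so that 0 is the level of the 75th percentile and 1 unit is a doubling. Differences were tested with limma across all 26553 genes and unnamed transcripts that passed the filter on dim probes, with Benjamini-Hochberg adjustment and a threshold of 0.05. The 9 genes had 12 probes, 7 of the genes having 1 probe each, and the probe that stood for each gene was well above background on all 8 arrays. Probes differ in brightness for reasons other than abundance, so levels are compared between groups and not between genes.

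In males, 3 of the 9 genes passed the test between knockout and wild type, 2 higher (Aldh1a7 and Rdh16) and 1 lower (Cyp26b1), where 10.6% of all features tested passed, 6.09% higher and 4.52% lower. In females, 4 passed, 2 higher (Aldh1a7 and Cyp26a1) and 2 lower (Cyp26b1 and Lrat), where 5.88% of all features passed, 3.49% higher and 2.39% lower. The arrays of the knockout and wild-type groups did not overlap for 8 of the 9 genes in males, against 61.5% of all features, and for 7 in females, against 55.5%. The median absolute log2 difference of the 9 genes was 0.96 in males, against 0.24 over all features, and 0.84 in females, against 0.24. The members were picked by name with earlier results of these arrays known, and with 9 genes these shares are a description.

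**Figure D1:**
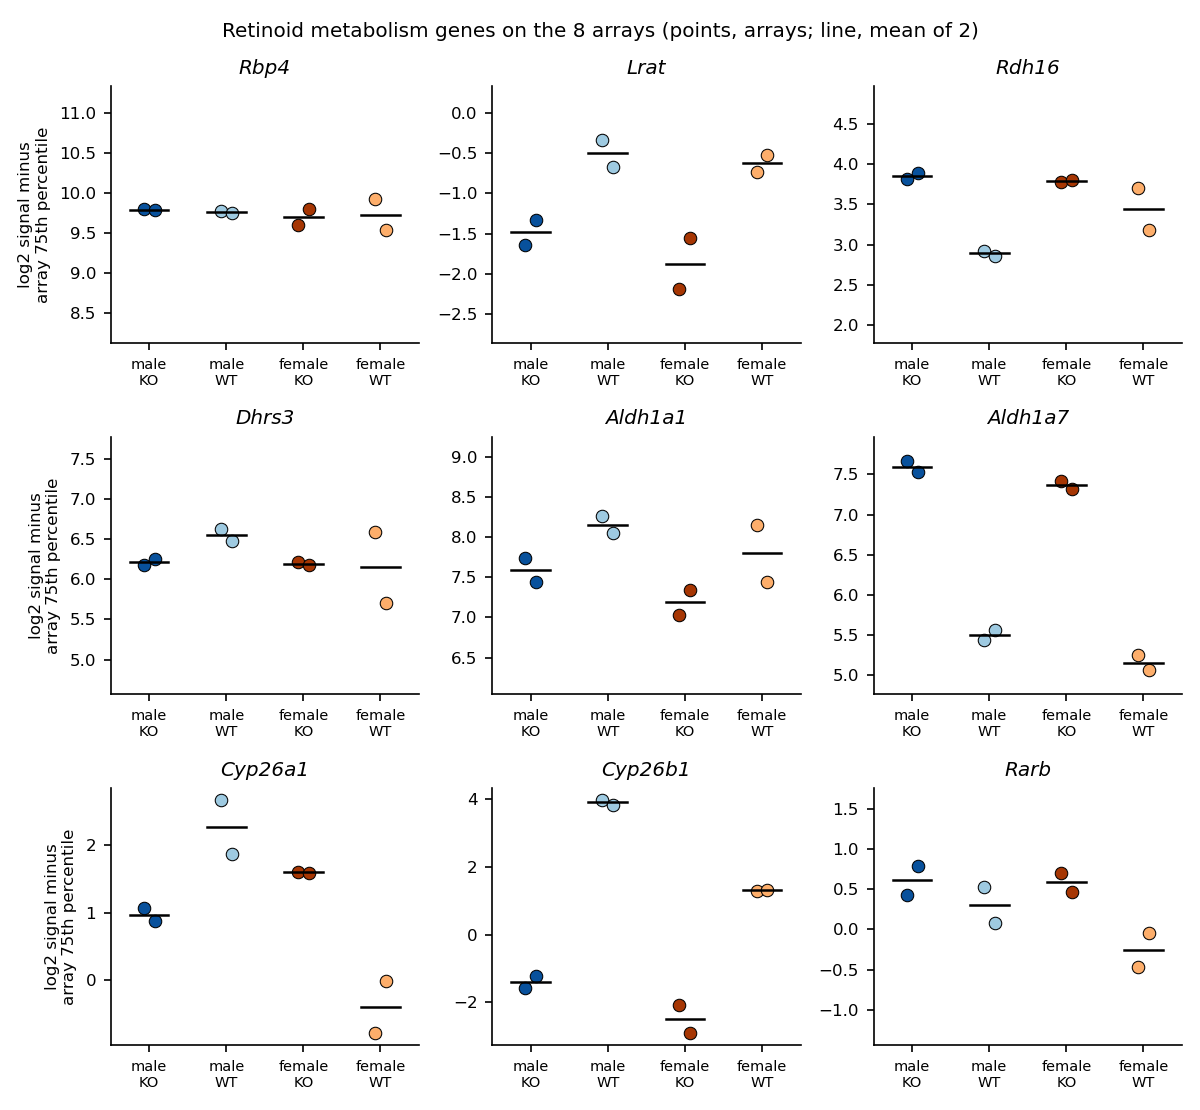
Level of each of the 9 genes on the 8 arrays, as log2 processed signal minus that of the array's 75th percentile, for the male knockout, male wild-type, female knockout and female wild-type groups from left to right. Points are arrays and lines the mean of 2 arrays; axis ranges differ between panels. Aldh1a7 lies between 7.31 and 7.67 on the 4 knockout arrays and between 5.06 and 5.56 on the 4 wild-type arrays, and Cyp26b1 lies below -1 on every knockout array and above 1 on every wild-type array.

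Rbp4, the plasma carrier of retinol that hepatocytes secrete, did not pass the test in either sex. It read 9.80 and 9.78 in knockout males, against 9.77 and 9.75 in wild-type males, and 9.60 and 9.80 in knockout females, against 9.92 and 9.54 in wild-type females. The 2 female groups overlapped. The differences were 0.03 (95% interval -0.34 to 0.40, limma adjusted p = 0.922) in males and -0.03 (-0.40 to 0.34, adjusted p = 0.923) in females, so a change of more than about 1.32-fold upward is outside the interval in males. A smaller change in either direction cannot be told from none with these arrays, and the sign itself turned with the normalization, to -0.0054 in males after quantile normalization.

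Lrat, which esterifies retinol for storage, was lower in the knockout livers of both sexes on every array, and the female difference passed the test. It read -1.64 and -1.34 in knockout males, against -0.34 and -0.66 in wild-type males, and -2.19 and -1.56 in knockout females, against -0.73 and -0.52 in wild-type females. No knockout array reached the lowest wild-type array of its sex. The female difference was -1.25 ± 0.24 (SE, 2.37-fold lower, limma adjusted p = 0.0427). Normexp background correction brought the female difference to -0.75 (limma adjusted p = 0.00711). The male difference was -0.99 ± 0.24 (adjusted p = 0.0578) and missed the threshold. The female call was lost in 7 of the 8 fits that left out 1 array, all but the one without female knockout replicate 2, with adjusted p up to 0.144. It was also lost when the replicate number entered as a block (adjusted p = 0.0571), without the filter on dim probes (adjusted p = 0.112) and with only the 2 female groups in the fit (0.128). The male difference passed with normexp background correction (-0.61, adjusted p = 0.0120), with probes well above background on all 8 arrays (0.0439) and without either female knockout array (0.0430), and its adjusted p ranged up to 0.235 over the alternatives.

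Lrat marks stellate cells, and in whole liver fewer such cells and less Lrat RNA per cell cannot be told apart. Alongside, 15 other stellate cell markers were read, from which Rarb, Cyp26b1 and Dhrs3 were left out. Their summed level, as a multiple of the 75th percentile of the array, was 137 to 147 in knockout males, against 107 to 122 in wild-type males, and 151 to 168 in knockout females, against 123 to 165 in wild-type females. That sum follows the brightest markers, Dcn and Ecm1, neither of which passed in either sex. The mean log2 level of the 15 was 0.54 to 0.67 in knockout males, against 0.11 to 0.28 in wild-type males. For females it was 0.61 to 0.81 in knockout livers, against 0.50 to 0.69 in wild-type livers. In males 4 of the 15 rose (Pdgfrb, Colec11, Col1a1 and Col3a1) and 0 fell, where 6.09% of all features passed as higher and 4.52% as lower. In females 0 of the 15 passed by limma in either direction, where 5.88% of all features passed, a share at which 0 of 15 is close to the background.

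Rdh16, a microsomal short-chain dehydrogenase that oxidises retinol and some steroids, rose in knockout males. It read 3.81 and 3.89 in knockout males, against 2.92 and 2.86 in wild-type males, and 3.78 and 3.81 in knockout females, against 3.71 and 3.18 in wild-type females. The wild-type males were the low group, and the other 3 groups lay between 3.18 and 3.89. The male difference was 0.96 ± 0.18 (SE, 1.95-fold, limma adjusted p = 0.0256) and the female difference 0.35 ± 0.18 (adjusted p = 0.281). The interaction of 0.61 ± 0.25 did not pass (adjusted p = 0.596), so the 2 sexes were not shown to differ. The male call was lost in 6 of the 8 fits that left out 1 array, namely any of the 4 male arrays or either female knockout array, with adjusted p between 0.0538 and 0.131 in them, and without the filter on dim probes (adjusted p = 0.0751). The female difference passed without female wild-type replicate 1 (0.62, adjusted p = 0.0465).

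The 250 bases before the RefSeq start of Rdh16 (GRCm38.p6, chr10:127800903-127801152, plus strand) are printed because they hold, in capitals, the only match among the 9 genes to the Bcl6 motif searched, TTCCNNGAA.
Rdh16: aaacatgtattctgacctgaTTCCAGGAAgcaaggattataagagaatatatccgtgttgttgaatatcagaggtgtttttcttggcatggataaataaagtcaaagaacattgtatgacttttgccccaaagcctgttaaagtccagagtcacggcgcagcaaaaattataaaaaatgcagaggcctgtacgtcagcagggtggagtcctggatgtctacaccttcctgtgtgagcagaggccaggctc
The match begins at position -230 from the start and is at the same time a match to the looser STAT motif TTCNNNGAA. Both strands of the 300-base windows around the starts (250 bases before and 50 after) were searched in 13 windows of the 9 genes. Of 32851 such windows of all genes, 4.81% held the Bcl6 motif and 8.30% the STAT motif. At that share, 1 gene with a Bcl6 motif match in 13 windows is close to the background. A match is a run of letters and not a measured binding site, and the other members' lack of one says only that these letters are not in those windows.

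Rdh16 lies on chromosome 10 in a row of 6 protein-coding retinol dehydrogenase genes, in the RefSeq order Rdh1, Rdh9, Rdh16, Rdh19, Rdh16f2 and Rdh7, and this neighbourhood was looked at after its values were seen. In males 4 of the 6 rose in the knockout (Rdh1, Rdh9, Rdh16 and Rdh16f2), and in females 1 did (Rdh1), where 6.09% of all features passed as higher in the knockout in males and 3.49% in females. Rdh9 read 5.95 and 5.82 in knockout males, against 3.89 and 3.81 in wild-type males, and 5.42 and 5.87 in knockout females, against 5.56 and 4.99 in wild-type females. As with Rdh16, the wild-type males were lowest, and the male difference of 2.04 ± 0.23 (SE) passed (adjusted p = 0.00532) where the female one of 0.37 did not (adjusted p = 0.364). Rdh16f2 read 7.09 and 7.05 in knockout males, against 5.37 and 5.43 in wild-type males, and 7.04 and 7.13 in knockout females, against 6.85 and 6.54 in wild-type females. Its male difference was 1.67 ± 0.13 (adjusted p = 0.00140) and its female difference 0.39 ± 0.13 (adjusted p = 0.131). Rdh1 rose alike in both sexes, by 1.79 ± 0.14 in males (adjusted p = 0.00163) and 1.75 ± 0.14 in females (adjusted p = 0.00288), which normexp correction, whose offset compresses low signals, brought to 0.98 and 0.99. Rdh7 at the end of the row differed by 0.08 in males (95% interval -0.17 to 0.32) and 0.11 in females (-0.13 to 0.36), and Rdh19, dim throughout and well above background on 7 of 8 arrays, by 0.23 and 0.10, with neither passing. The interactions of Rdh9 (1.66, adjusted p = 0.247) and Rdh16f2 (1.27, adjusted p = 0.109) did not pass. These genes are close relatives, so how far each probe reads only its own transcript is uncertain.

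**Figure D2:**
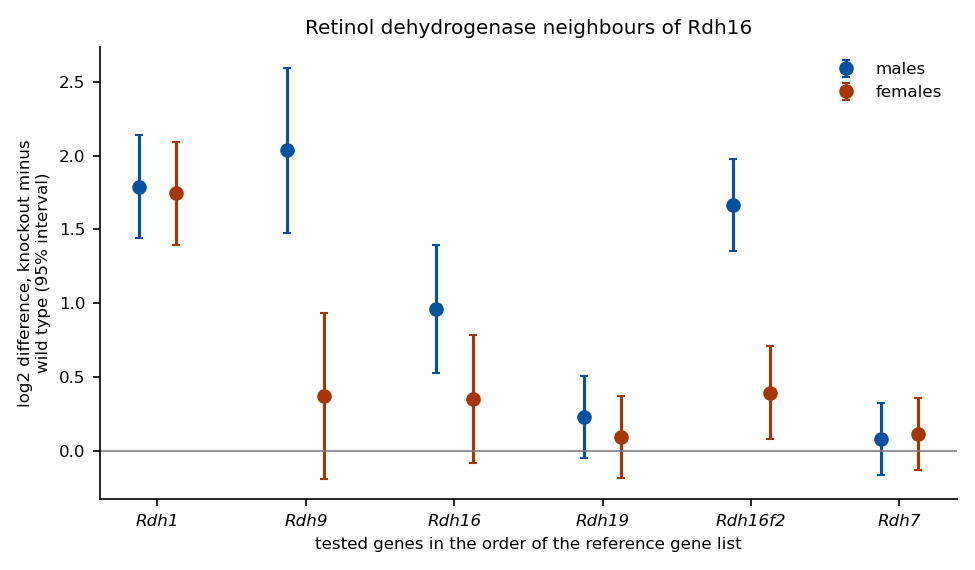
Knockout minus wild-type difference of log2 level (points) with its 95% interval (bars) in males and females, for the 6 retinol dehydrogenase genes in their order in the reference list of chromosome 10. Rdh1 is near 1.8 in both sexes, Rdh9, Rdh16 and Rdh16f2 are between 0.96 and 2.04 in males and between 0.35 and 0.39 in females, and Rdh19 and Rdh7 are at 0.23 or below.

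Dhrs3, a retinal reductase that turns retinal back into retinol, showed no difference past the threshold. It read 6.17 and 6.26 in knockout males, against 6.63 and 6.48 in wild-type males, and 6.21 and 6.18 in knockout females, against 6.58 and 5.71 in wild-type females. The male groups did not overlap, and the 2 wild-type females lay on either side of both knockout females. The differences were -0.34 (95% interval -1.0 to 0.32, adjusted p = 0.471) in males and 0.05 (-0.61 to 0.71, adjusted p = 0.931) in females. A second, dimmer probe read 0.26 and 0.32 in knockout males, against 0.71 and 0.69 in wild-type males, and 0.27 and 0.10 in knockout females, against 0.75 and 0.20 in wild-type females. Averaging the 2 probes turned the sign of the female difference, to -0.12 (adjusted p = 0.779).

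Aldh1a1, the main retinal dehydrogenase of the mouse liver, was lower on average in knockout livers but missed the threshold in both sexes. It read 7.73 and 7.44 in knockout males, against 8.26 and 8.06 in wild-type males, and 7.04 and 7.34 in knockout females, against 8.15 and 7.45 in wild-type females. The groups did not overlap in either sex, though knockout female replicate 2 (7.34) was close to wild-type female replicate 2 (7.45). The differences were -0.57 (95% interval -1.20 to 0.06, adjusted p = 0.226) in males and -0.61 (-1.24 to 0.02, adjusted p = 0.213) in females.

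Aldh1a7, a close paralogue that lies next to Aldh1a1 on chromosome 19, rose in both sexes. It read 7.67 and 7.53 in knockout males, against 5.44 and 5.56 in wild-type males, and 7.42 and 7.31 in knockout females, against 5.25 and 5.06 in wild-type females. All 4 knockout arrays were above all 4 wild-type arrays. The difference was 2.10 ± 0.12 (SE, 4.28-fold, limma adjusted p = 0.000474) in males and 2.21 ± 0.12 (4.64-fold, adjusted p = 0.000754) in females. Both calls held in all 16 alternatives, with a highest adjusted p of 0.00737 in males and 0.0198 in females. Cross-reading between the probes of Aldh1a1 and Aldh1a7 was not tested, and the activity of either enzyme towards retinal was not measured.

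Cyp26b1, a retinoic acid hydroxylase that in liver is also known from stellate cells, fell in both sexes, and its difference was the largest of the 9 genes in each. It read -1.59 and -1.22 in knockout males, against 3.98 and 3.83 in wild-type males. In females it read -2.09 and -2.91 in knockout livers, against 1.29 and 1.33 in wild-type livers. All knockout arrays were below all wild-type arrays, and within each genotype the males were above the females. The difference was -5.31 ± 0.28 (SE, 39.7-fold lower, limma adjusted p = 0.000368) in males and -3.81 ± 0.28 (14.0-fold lower, adjusted p = 0.00181) in females. Both calls held in all 16 alternatives, with a highest adjusted p of 0.00522 in males and 0.0283 in females, while normexp correction gave -4.41 in males and -2.45 in females. The male difference was larger by 1.5 ± 0.39 on the log2 scale, which did not pass the adjusted test (limma adjusted p = 0.377) except with normexp correction (-1.96, adjusted p = 0.00315), where the other alternatives gave adjusted p up to 0.667.

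Cyp26a1, the retinoic acid hydroxylase that hepatocytes express, differed in opposite directions in the 2 sexes. It read 1.06 and 0.87 in knockout males, against 2.67 and 1.86 in wild-type males. In females it read 1.61 and 1.59 in knockout livers, against -0.78 and -0.01 in wild-type livers. In males both knockout arrays were below both wild-type arrays, and in females both were above. From high to low, the groups ran male wild type, female knockout, male knockout and female wild type, with no overlap between neighbours. The female rise was 1.99 ± 0.34 (SE, 3.99-fold, limma adjusted p = 0.0284), and the male difference was -1.30 ± 0.34 (adjusted p = 0.0652), short of the threshold. The interaction was -3.30 ± 0.48 (95% interval -4.46 to -2.13), which after adjustment over all features did not pass (adjusted p = 0.117), where 0.196% of all features passed. It passed with normexp correction (-2.79, adjusted p = 0.0238), and its adjusted p ranged up to 0.356 over the alternatives. The female call was lost in 5 of the 8 fits that left out 1 array, without either female knockout array, either male knockout array or female wild-type replicate 1, with adjusted p up to 0.132, and also with a replicate block (adjusted p = 0.0544), without the filter on dim probes (0.0797) and with only the 2 female groups in the fit (0.0779). The male difference passed with normexp correction (-1.18, adjusted p = 0.0185) and without either female wild-type array (adjusted p = 0.0473).

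Rarb, a retinoic acid receptor gene that retinoic acid itself induces, was higher on average in knockout livers without passing the test. It read 0.43 and 0.79 in knockout males, against 0.53 and 0.07 in wild-type males, and 0.71 and 0.47 in knockout females, against -0.46 and -0.05 in wild-type females. The male groups overlapped and the female groups did not. The differences were 0.31 (95% interval -0.26 to 0.87, adjusted p = 0.453) in males and 0.84 (0.28 to 1.41, adjusted p = 0.0941) in females, and the female one passed with normexp correction (0.64, adjusted p = 0.0467) and in no other alternative. A second probe read -1.70 and -1.65 in knockout males, against -1.65 and -2.22 in wild-type males, and -1.24 and -1.45 in knockout females, against -2.16 and -1.97 in wild-type females. The remaining Rarb probe was well above background on 3 arrays.

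Cyp26a1 and Rarb were the only 2 of the 9 genes with a DR5 element in the window searched, the arrangement of receptor half-sites best known from retinoic acid response elements. The 250 bases before each start are shown because of it, 5′ to 3′ on the strand of the gene, with the element in capitals: Cyp26a1 from chr19:37697558-37697807, plus strand, and Rarb from chr14:16575477-16575726, minus strand, both GRCm38.p6.
Cyp26a1: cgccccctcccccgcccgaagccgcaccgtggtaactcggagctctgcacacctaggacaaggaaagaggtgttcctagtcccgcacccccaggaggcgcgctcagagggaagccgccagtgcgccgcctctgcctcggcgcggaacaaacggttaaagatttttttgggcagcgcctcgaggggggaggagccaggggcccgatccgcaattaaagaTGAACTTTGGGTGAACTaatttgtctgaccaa
Rarb: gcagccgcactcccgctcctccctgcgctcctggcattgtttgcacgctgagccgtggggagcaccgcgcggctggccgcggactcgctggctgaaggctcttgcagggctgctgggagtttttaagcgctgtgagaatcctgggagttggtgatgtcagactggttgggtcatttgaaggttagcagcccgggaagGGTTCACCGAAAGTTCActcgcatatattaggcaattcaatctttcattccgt
DR5 was searched as any pair, in the same direction with 5 bases between them, of the half-site AGGTCA and its close variants, which were AGTTCA along with GGGTCA plus the variant GGTTCA, on either strand. The Cyp26a1 element, TGAACTTTGGGTGAACT, begins at -32 and reads on the opposite strand. The Rarb element, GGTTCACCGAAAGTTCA, begins at -53, and a STAT motif match inside it, TTCACCGAA, begins at -51. Of all 32851 windows 0.0974% held a DR5 element. The same half-sites 2 bases apart were found in 0 of the 9 genes, against 0.268% of all windows. Both genes are well-known carriers of such elements, so the matches describe the sequence and are no result of these arrays. In females both genes read higher in knockout than in wild-type livers, the Rarb difference without passing (limma adjusted p = 0.0941). In males Cyp26a1 read lower and Rarb overlapped between groups. Among 8 other tested genes that retinoic acid is known to change, the median log2 difference was 0.13 in males and -0.19 in females. Over all features it was -0.01 and 0.01. Whether retinoic acid signalling differed was not tested.

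**Figure D3:**
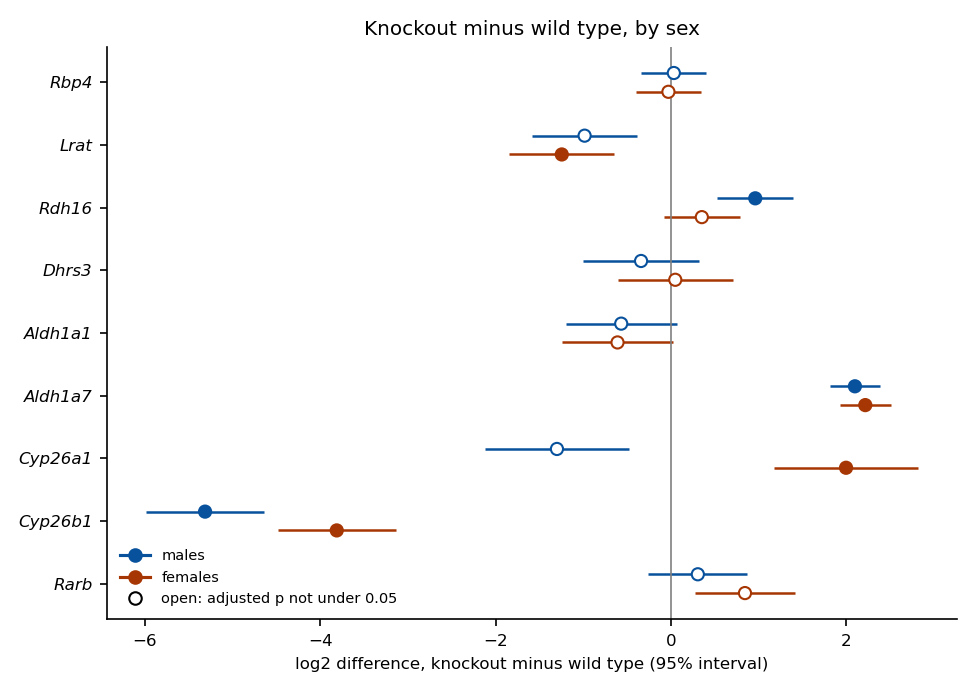
Knockout minus wild-type difference of log2 level for the 9 genes in males (blue) and females (orange), with 95% intervals; filled points passed an adjusted p of 0.05. Cyp26b1 lies at -5.31 and -3.81, Aldh1a7 at 2.10 and 2.21, and Cyp26a1 lies on opposite sides of 0 in the 2 sexes.

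Between the sexes, 2 of the 9 genes passed in wild-type livers, both higher in males, where 0.911% of all features passed, with 0.55% of all features higher in males. Cyp26a1 was 2.67 ± 0.34 log2 units higher in wild-type males than in wild-type females (SE, 6.34-fold, limma adjusted p = 0.0341). Cyp26b1 was 2.60 ± 0.28 higher (6.06-fold, adjusted p = 0.0187). The other 7 ranged from -0.55 for Rdh16 (adjusted p = 0.204) to 0.56 for Rarb (adjusted p = 0.287). Wild-type males and females did not overlap for 5 of the 9 genes, against 47.5% of all features. The Cyp26a1 call was lost in 7 of the 8 fits without 1 array, all but the one without female wild-type replicate 2, with adjusted p up to 0.0897. The Cyp26b1 call was lost in 5 of them, without any male array or without female wild-type replicate 1, with adjusted p up to 0.0924. Without the filter on dim probes both were lost (adjusted p = 0.0955 and 0.0570), and the Cyp26a1 call was lost with the replicate block (adjusted p = 0.0689) and with only the 2 wild-type groups in the fit (0.204). The Rdh16 difference passed without female wild-type replicate 2 (-0.82, adjusted p = 0.0438).

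In knockout livers 0 of the 9 genes passed between males and females by limma, with 1 at an unadjusted p under 0.05 and 0 under the other settings tried, where 0.0791% of all features passed, 0.0603% higher and 0.0188% lower in males. That gene was Cyp26b1, 1.1 ± 0.28 higher in knockout males than in knockout females (adjusted p = 0.640). Cyp26a1 differed by -0.63 ± 0.34 (adjusted p = 0.888), with its 2 knockout females at 1.61 and 1.59 above its 2 knockout males at 1.06 and 0.87. The sexes did not overlap for 5 of the 9 genes, against 41.3% of all features. The difference of the knockout effect between the sexes, which is also the difference of the sex effect between the genotypes, passed for 0 of the 9 genes. Over all features 0.196% passed, so 0 of 9 is close to the background. Cyp26a1 and Cyp26b1 were the 2 with an unadjusted p under 0.05. With normexp correction 2 of the 9 passed, where 80 of 26553 features did. The share of all features at an unadjusted p under 0.05 was not counted, so the counts at that cut-off stand without a background.

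**Figure D4:**
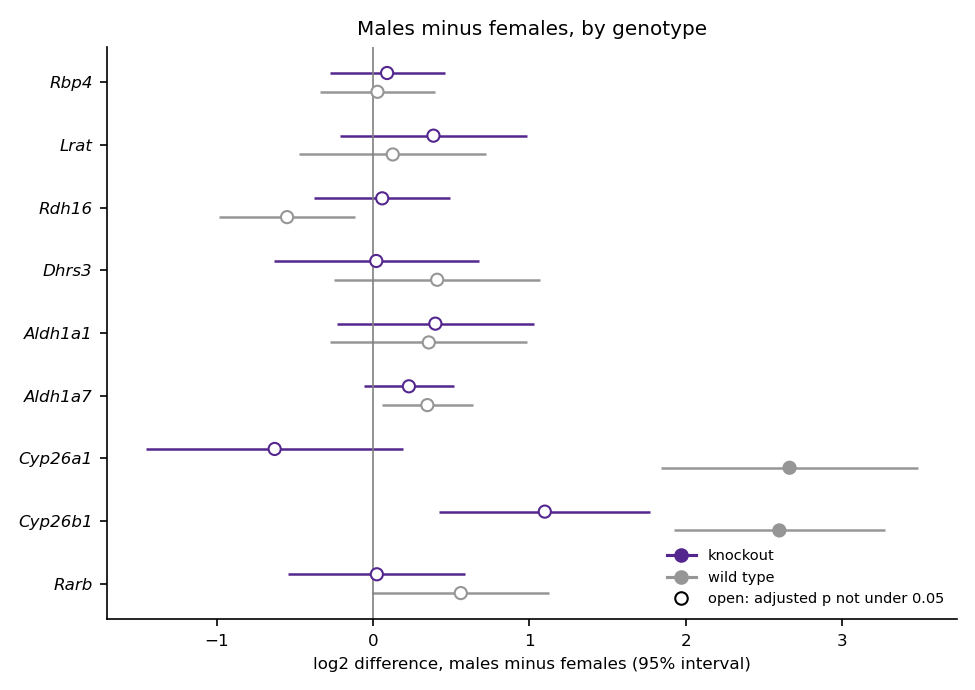
Male minus female difference of log2 level for the 9 genes in knockout (purple) and wild-type livers (grey), with 95% intervals; filled points passed an adjusted p of 0.05. In wild-type livers Cyp26a1 and Cyp26b1 lie at 2.67 and 2.60, and in knockout livers at -0.63 and 1.1.

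Beside the 9 genes, 76 other genes of the pathway were listed in 8 groups by role, and 60 passed the filter. The knockout difference passed for 13 of the 60 in males (8 higher and 5 lower) and for 12 in females (7 higher and 5 lower), where 10.6% and 5.88% of all features did. Both counts include Rbp7, which passed the filter on dim probes only through the knockout arrays. In wild-type livers 2 of the 60 differed between the sexes, Aox3 higher and Rdh16f2 lower in males, where 0.911% of all features passed. By limma 0 passed between knockout males and knockout females and 0 in the interaction, where 0.0791% and 0.196% of all features did. Both counts of 0 are close to the background. Of these 27 calls, 11 held in every alternative: those of Rdh1, Aldh1b1 and Aox3 in both sexes, and of Rdh9, Rdh16f2, Akr1b3, Aldh1a2 and Bco1 in males. The other 16 were each lost in at least 1 alternative, and the female calls of Ttr, Rara and Rxra in all 8 fits that left out 1 array.

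Of the carriers, 2 of 7 tested passed in males and 3 in females, Rbp7 among them in both. Over all features 10.6% passed in males and 5.88% in females. Ttr, which holds Rbp4 in plasma, fell in both sexes. It read 8.64 and 8.63 in knockout males, against 9.12 and 9.11 in wild-type males (difference -0.48 ± 0.10 (SE), adjusted p = 0.0367), and 8.43 and 8.59 in knockout females, against 9.11 and 9.01 in wild-type females (-0.55 ± 0.10, adjusted p = 0.0350). Ttr also stood on the list of hepatocyte markers, of which it was the 1 of 8 that passed, a count close to the share of all features. Rbp7, a cellular retinol-binding protein, was well above background on all 4 knockout arrays and on no wild-type array. Its level was at least 3.71-fold higher in knockout males (adjusted p = 0.0147) and at least 3.23-fold higher in knockout females (adjusted p = 0.0366), where the bound sets the wild-type arrays at the lowest signal called well above background. Rbp7 was tested only because its knockout arrays were bright, so it had to differ, and these values are a description. Normexp correction brought its log2 difference to 0.53 in males and 0.48 in females, and of the 8 fits that left out 1 array the male call held in 6 and the female call in 2. Stra6l, a liver receptor for Rbp4, rose in knockout females by 0.63 ± 0.12 (adjusted p = 0.0359), and its male difference was 0.45 ± 0.12 (adjusted p = 0.0666).

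Of the retinol and retinal oxidoreductases, 5 of 18 tested passed in males and 3 in females, where 10.6% and 5.88% of all features did. In males, beside Rdh1, Rdh9 and Rdh16f2, they were Akr1b3, the mouse aldose reductase, and Adh4, an alcohol dehydrogenase of the liver. In females, beside Rdh1, they were Akr1b3 and Rdh13, a mitochondrial member. Akr1b3 rose by 1.04 ± 0.12 in males (adjusted p = 0.00507) and 0.92 ± 0.12 in females (adjusted p = 0.0122). Adh4 fell by 1.30 in males (adjusted p = 0.0172), with a female difference of -0.61 (adjusted p = 0.147), and Rdh13 fell by 1.01 in females (adjusted p = 0.0197), with a male difference of -0.63 (adjusted p = 0.0528). Adh4 was outside the rule of 4 named genes per list and is named after its value was seen.

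Of the enzymes that oxidise retinal to retinoic acid, Aldh1a2 and Aldh1b1 rose and Aox3 fell in both sexes. Aldh1a2, the retinal dehydrogenase best known from the embryo, read -2.33 and -2.23 in knockout males, against -4.79 and -4.77 in wild-type males, and -1.22 and -2.01 in knockout females, against -4.29 and -4.01 in wild-type females. Every knockout array was above every wild-type array, by 2.50 ± 0.26 in males (adjusted p = 0.00388) and 2.54 ± 0.26 in females (adjusted p = 0.00617), and 1 of the 2 male wild-type arrays was well above background. With normexp correction these differences were 0.68 and 0.94 (adjusted p = 0.0270 and 0.0102). Aldh1b1, a mitochondrial relative, rose by 1.76 ± 0.16 in males (adjusted p = 0.00237) and 1.84 ± 0.16 in females (adjusted p = 0.00323). Aox3, an aldehyde oxidase of the liver, read 0.91 and 0.88 in knockout males, against 3.62 and 3.55 in wild-type males, and 0.21 and 0.41 in knockout females, against 2.32 and 2.48 in wild-type females. It fell by 2.69 in males (adjusted p = 0.000241) and 2.09 in females (adjusted p = 0.000862). Within wild type it was 1.18 ± 0.12 higher in males (adjusted p = 0.0140). Aox1 fell by 0.93 in males (adjusted p = 0.0379), with a female difference of -0.78 (adjusted p = 0.0809).

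Bco1, which cleaves carotene to retinal, rose by 2.26 ± 0.14 in males (adjusted p = 0.000717) and 1.24 ± 0.14 in females (adjusted p = 0.00937). After normexp correction these were 1.29 and 0.81. Bco2, the other cleavage enzyme, did not pass. Of 9 other genes of retinyl ester synthesis and hydrolysis, 0 passed by limma in any comparison. Of the 8 nuclear receptors tested, 0 passed in males and 2 fell in females, Rara by 0.57 (adjusted p = 0.0391) and Rxra by 0.60 (adjusted p = 0.0294), with male differences of -0.27 and -0.35. Of 8 genes that retinoic acid is known to change, Rarres1 fell by 2.79 in males (adjusted p = 0.0177), with a female difference of -2.06 (adjusted p = 0.0579), and the others did not pass. Of the genes for breakdown and conjugation beside the 9, 2 were tested (Por and Cyp2c29) and 0 passed. Over all features 10.6% passed in males and 5.88% in females, with 4.52% and 2.39% of all features passing as lower. At these shares the counts of 0 in these lists, and Rarres1 as 1 of 8, are close to the background.

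**Figure D5:**
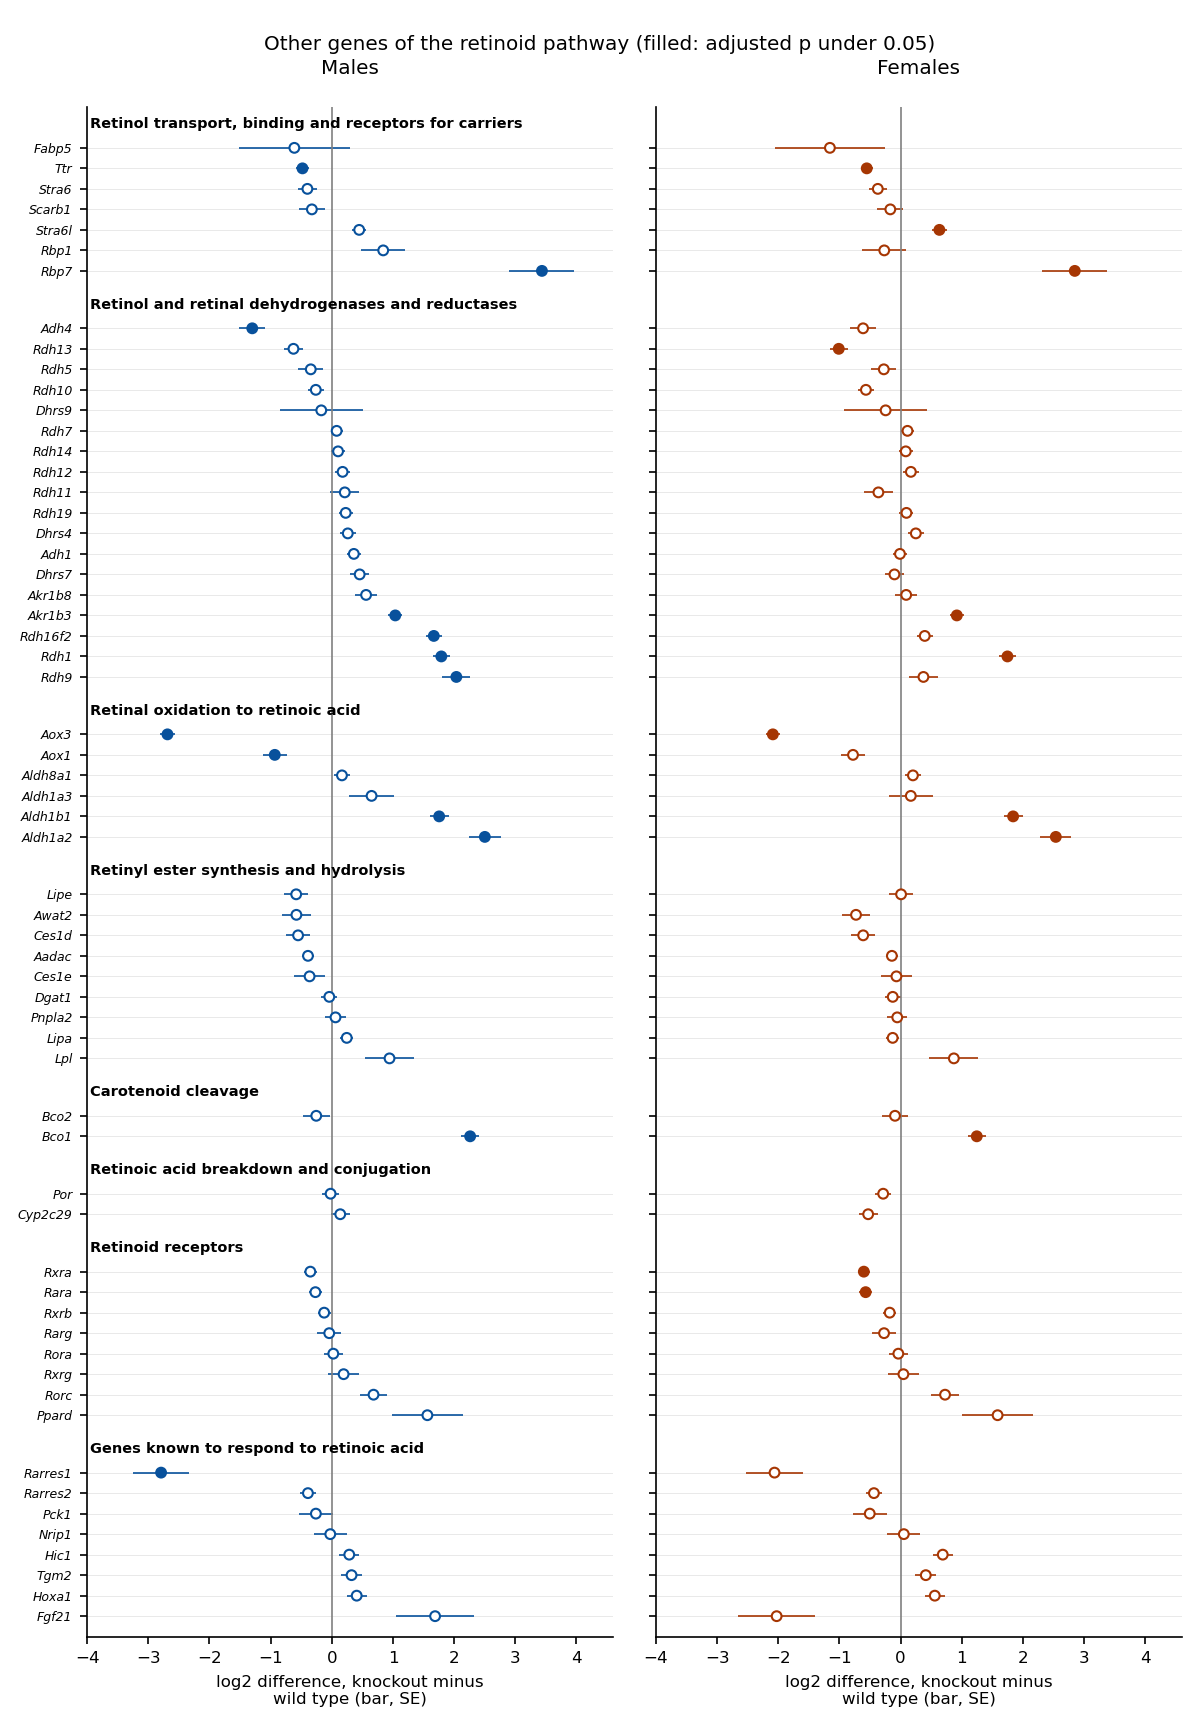
Knockout minus wild-type difference of log2 level (bars, SE) for the 60 other retinoid genes tested, grouped by role, in males (left) and females (right); filled points passed an adjusted p of 0.05. Rbp7, Aldh1a2, Aldh1b1, Rdh1, Akr1b3 and Bco1 are filled to the right of 0 in both sexes, and Aox3 and Ttr to the left; the Rbp7 point is a fitted value against wild-type arrays that were not well above background.

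Markers of other cells were read on the same arrays. Of 11 endothelial markers 3 rose in knockout males and 1 (Vwf) in knockout females, where 6.09% and 3.49% of all features passed as higher. Of 8 macrophage markers 0 passed by limma in either sex, where 10.6% of all features passed in males and 5.88% in females. The female endothelial count and both macrophage counts are close to these shares. The summed endothelial level was 91.3 to 96.4 in knockout males, against 63.3 to 65.9 in wild-type males, and 90.3 to 91.9 in knockout females, against 77.4 to 83.4 in wild-type females. Of 7 cholangiocyte markers 1 passed in each sex, Prom1, which was higher in the knockout. Both counts are close to the 6.09% and 3.49% of all features. Prom1 passed the filter on dim probes only through the knockout arrays, so its calls are a description. Only 3 of the 7 were well above background on all 8 arrays. The part of these cells in the differences of the retinoid genes was not tested. Summed levels of the markers of both zones of the liver lobule were lower on average in the knockout, but a sum follows its brightest markers. The summed level of 7 periportal hepatocyte markers was 954 to 1038 in knockout males, against 1282 to 1378 in wild-type males, and 908 to 1086 in knockout females, against 1038 to 1326 in wild-type females, where the ranges overlapped. That of 7 pericentral markers was 761 to 818 in knockout males, against 955 on both arrays of wild-type males, and 806 to 808 in knockout females, against 899.9 to 1102 in wild-type females. Taken per marker, the median log2 difference of the periportal list was -0.24 in males and 0.10 in females. That of the pericentral list was -0.05 in males and -0.51 in females. The mean log2 level of the pericentral markers was 3.42 on both knockout male arrays, within the 3.31 to 3.46 of wild-type males. Of the periportal markers 1 passed, Cyp2f2, which fell in both sexes. Of the pericentral markers 2 passed in both sexes, Glul lower and Slc1a2 higher. Over all features 10.6% passed in males and 5.88% in females, and the periportal counts are close to these shares. The part of the zones of the liver in the differences of the 9 genes was not tested.

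Among 15477 genes with a symbol, those whose levels followed each of the 5 members that passed a test most closely over the 8 arrays were found by Pearson's r, as a description, since the arrays fall in 4 groups of 2 and share their libraries' scaling. Aldh1a7 was followed by H2ac19 and Dnah11 (both r = 0.996) and Gm32074 (r = 0.995). Cyp26b1 was followed by Pigyl (r = 0.992), Cxxc1 (r = 0.991) and Rpp40 (r = 0.990). Rdh16 was followed by Cd36 (r = 0.996), Bche (r = 0.991) and Ugt1a6b (r = 0.991), and Lrat by Ormdl3 (r = 0.986), Trir (r = 0.985) and Abcb11 (r = 0.983). Cyp26a1 had the lowest values of the 5, with Zim1 (r = 0.959), C730027H18Rik (r = 0.947) and Pcp4 (r = 0.935). Gm32074 was well above background on 4 of the 8 arrays and Zim1 on 3, the other 13 genes named here on all 8.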

How the data were processed

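RNA of whole liver, extracted with Trizol, was labelled with Cy3 and read on 1-colour Agilent arrays, per the labels' protocols. The authors deposited intensity values, which per the file headers are background-subtracted processed signals from Agilent's Feature Extraction 11.5.1.1, made array by array. Version 9.1.3.1 stands in the submitters' processing notes. The deposited value table holds log2 values that equalled the log2 processed signal minus 1 constant per array (6.99 to 7.30), within 0.01 for 100% of the probes compared. Its direction and scale are therefore known, and it was not centred per gene.

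Spots called uneven or outliers by the scanner's software were left out (55 to 139 per array), spots of a probe were averaged, and log2 of the 75th percentile of each array was subtracted. Of 56605 probes, 32994 carried 1 of 22911 symbols through RefSeq accessions (list of assembly GRCm38.p6) and 23611 kept their identifier. The filter kept the 33582 probes that both arrays of some group read well above background, and the brightest probe stood for a gene. Limma 3.58.1 in R 4.3.3 (lmFit, eBayes) fitted 4 group means with 4 residual and 2.07 prior degrees of freedom. A feature with an array missing was fitted on the others (52 features, none of them a member). The script was tested on simulated data. The rest was done in Python 3.11.15 (numpy 2.4.6, pandas 2.3.3, matplotlib 3.10.9), and promoter sequences are from RefSeq (GRCm38.p6).

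Named are the 9 members with every probe, up to 4 other retinoid genes past the threshold per list and comparison, and the 3 genes closest to each member that passed. The members and the lists were chosen with earlier results of these data known. Replicate numbers did not pair the arrays: the deviations of same-numbered arrays correlated between -0.0016 and 0.102. Alternatives were normexp background correction (offset 50, on median signals, since the files hold no mean signals), quantile normalization, the deposited table, the mean of the probes of a gene, other filters, a replicate block, only the groups compared, and each array left out.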

Additional observations from a re-analysis of the deposited data

Results flagged for a closer look

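The knockout effect on Cyp26a1 was flagged because the genotypes did not overlap in either sex and differed in opposite directions. Of all features, 61.5% did not overlap in males and 55.5% in females. The share that did so in opposite directions was not counted. Both knockout males (1.06 and 0.87) read below both wild-type males (2.67 and 1.86), and both knockout females (1.61 and 1.59) read above both wild-type females (-0.78 and -0.01). The difference between the effects was -3.30 on the log2 scale (unadjusted p = 0.000436), and limma's adjusted p over all features was 0.117. With 2 arrays per group, and slide row and sex not told apart, it is given as a value.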

How the results depend on the processing

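The differences of the members were recomputed under 16 alternatives (15 for the interaction), 509 values for 32 differences: 446 kept direction and side of the threshold, 41 lost the call, 12 gained one and 10 turned sign, with 0 of the 10 past the threshold. For the other retinoid genes named, recomputed the same way by a choice made after seeing the data, 479 of 602 values kept direction and side, 106 lost the call, 17 gained one and 0 turned sign. The cause was not tested. The count in knockout males against wild-type males was 3 and became 5 with normexp, with 2 to 4 when 1 array was left out. The female count of 4 became 2 without the filter on dim probes, with the replicate block and with only the groups compared, and 2 to 3 when 1 array was left out. The wild-type sex count of 2 became 0 without the filter, 1 with the replicate block, 1 with only the groups compared, and 0 to 3 when 1 array was left out; the interaction count of 0 became 2 with normexp. The replicate block, on numbers that are not a pairing, ended the calls of Cyp26a1 and Lrat in females and of Cyp26a1 between wild-type sexes. Sign turned for Rbp4 in males (-0.0054, quantile) and between wild-type sexes (-0.0463 with normexp, -0.149 with quantile, -0.164 to 0.220 with 1 array left out), for Rbp4 in females (-0.222 to 0.162 with 1 array left out), for Dhrs3 in females (-0.120 with the mean of its probes, -0.388 to 0.484 with 1 array left out), and between wild-type sexes for Dhrs3 (-0.0261 to 0.846) and Lrat (-0.0378 to 0.290). Over all features the calls in males numbered 2816, against 1226 without the filter and 812 to 3110 with 1 array left out. In females they numbered 1562, against 524 without the filter, 363 with only the groups compared, 2613 with normexp and 414 to 1615 with 1 array left out. Between wild-type sexes they numbered 242, against 91, 43 and 622 under the same settings and 97 to 488 with 1 array left out; between knockout sexes 21, against 1 with probes well above background on all 8 arrays; for the interaction 52, against 16 without the filter, 24 with the replicate block, 80 with normexp and 0 to 121 with 1 array left out. Quantile normalization, which sets all arrays to the same distribution, changed no member's call. Nor did the deposited table, which differs only by 1 constant per array.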
